A study of Mus musculus with 8 samples.

Results

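Complement components and regulators were examined in dermal fibroblasts of female mice fed a normal diet (ND) or a high fat diet (HFD). The list of 9 genes holds C3, C4b, C2, Cfb, C1ra, Serping1, Masp1, Cd55 and Cd59a. Of these, 8 were measured among 17097 genes of the array, and C3, which no probe set names alone, was not analysed here. A gene's value is that of its brightest probe set, the group of array probes that names only this gene, taken by its mean over the 7 arrays compared. The 8 genes had 15 probe sets, and 5 of the genes had 1 each.

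The mice began their diets at 2 months of age and stayed on them for 6 months, and all were killed on the same day. The strain and the diets' composition are not given in the sources used here, and no genetic change is named for either group. Cells came from skin without its subdermis, digested with collagenase. They were sorted for Pdgfra and CD34 and against CD45, CD117, CD24, CD31 and EpCam, with 10000 cells per sample, and their RNA was amplified over 20 cycles. There were 4 arrays per diet, but the labels mark ND 4 as excluded by quality control, so the comparison is of HFD 1 to 4 against ND 1 to 3. Each specimen was treated as a separate mouse, as the design text states 4 per diet. With so few arrays, precision is limited by their number.

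Complement is a cascade of proteases and binding proteins in blood and tissue fluid that marks microbes and damaged cells. The classical route starts with C1q and its proteases, the lectin route with carbohydrate-binding proteins and their MASP proteases, and the alternative route with slow spontaneous turnover of C3 and factor B. All of them build enzymes that cleave C3, and host cells limit them with secreted inhibitors and with membrane proteins such as Cd55 and Cd59a. The liver makes most complement of the plasma, while fibroblasts also secrete several components locally, and cytokines of the interferon, interleukin and tumour necrosis factor families raise their transcription.

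The start regions of the measured members are shown because the receptors that carry such cytokine signals are among the genes measured below. RefSeq windows of 300 bases, from 250 bases before to 50 after a start site, were found for C1ra (chr6:124512371-124512670, plus strand), Cd55 (chr1:130462695-130462994, minus strand) and Cd59a (chr2:104095551-104095850, plus strand), all of GRCm38.p6. C2, C4b, Cfb, Masp1 and Serping1 had no entry. Capitals mark matches on either strand to 5 motif types, the STAT type TTCNNNGAA, the C/EBP type TTGCNNAA, the interferon regulatory factor type GAAANNGAA, the NF-kappaB type GGGNNTTCC and the Sp1 type GGGCGG.
C1ra: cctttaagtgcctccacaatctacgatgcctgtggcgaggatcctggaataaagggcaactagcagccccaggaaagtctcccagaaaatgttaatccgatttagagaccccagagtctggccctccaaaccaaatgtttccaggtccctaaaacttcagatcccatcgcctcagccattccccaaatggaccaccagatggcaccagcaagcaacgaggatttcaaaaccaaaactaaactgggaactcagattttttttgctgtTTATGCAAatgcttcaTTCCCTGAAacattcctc
Cd55: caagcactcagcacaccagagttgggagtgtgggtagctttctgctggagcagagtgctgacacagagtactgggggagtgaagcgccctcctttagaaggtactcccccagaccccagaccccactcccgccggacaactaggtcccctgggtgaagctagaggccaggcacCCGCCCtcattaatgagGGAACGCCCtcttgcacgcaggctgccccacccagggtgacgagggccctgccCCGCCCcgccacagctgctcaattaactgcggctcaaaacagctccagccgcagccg
Cd59a: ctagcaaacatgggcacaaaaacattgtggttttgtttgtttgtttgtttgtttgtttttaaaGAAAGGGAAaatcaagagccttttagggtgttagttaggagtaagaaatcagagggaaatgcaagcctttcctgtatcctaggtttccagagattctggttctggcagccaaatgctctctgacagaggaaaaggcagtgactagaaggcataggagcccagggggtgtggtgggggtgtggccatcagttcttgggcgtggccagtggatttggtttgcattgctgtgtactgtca
The C1ra window held a STAT type match, TTCCCTGAA, and a C/EBP type match, TTATGCAA, which began at bases 33 and 17 of the transcript, counted from the start site as base 1. The Cd55 window held an NF-kappaB type match, GGAACGCCC, and 2 Sp1 type matches, while the Cd59a window held an interferon regulatory factor type match, GAAAGGGAA. None of these matches overlapped another. Of 32851 RefSeq windows of this length, 8.3% held the STAT type, 10.8% the C/EBP type, 8.56% the interferon regulatory factor type, 5.82% the NF-kappaB type and 35.7% the Sp1 type. The letters searched were settled after matches had been seen, and a match is a description of the sequence.

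None of the 8 members passed the threshold between diets (limma, Benjamini-Hochberg adjusted p under 0.05 over all genes), where 5.35% of all genes did. At an unadjusted p under 0.05 there were 2, Cfb with a higher and Cd55 with a lower value in HFD, against 22.1% of all genes. The arrays of the diets did not overlap for 2 of 8 members, against 17.9% of all genes. These were Cfb, higher in HFD as for 9.95% of all genes, and Cd59a, lower as for 7.99%. Values were higher in HFD for 4 members and lower for 4, with a median difference of −0.02 log2 units against 0.02 over all genes. The 95% intervals of 7 of the 8 differences lay within 0.5 log2 units of 0, and only that of Cd55 reached beyond. In sorted cells, fewer cells of a kind and less RNA per cell cannot be told apart.

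**Figure D1:**
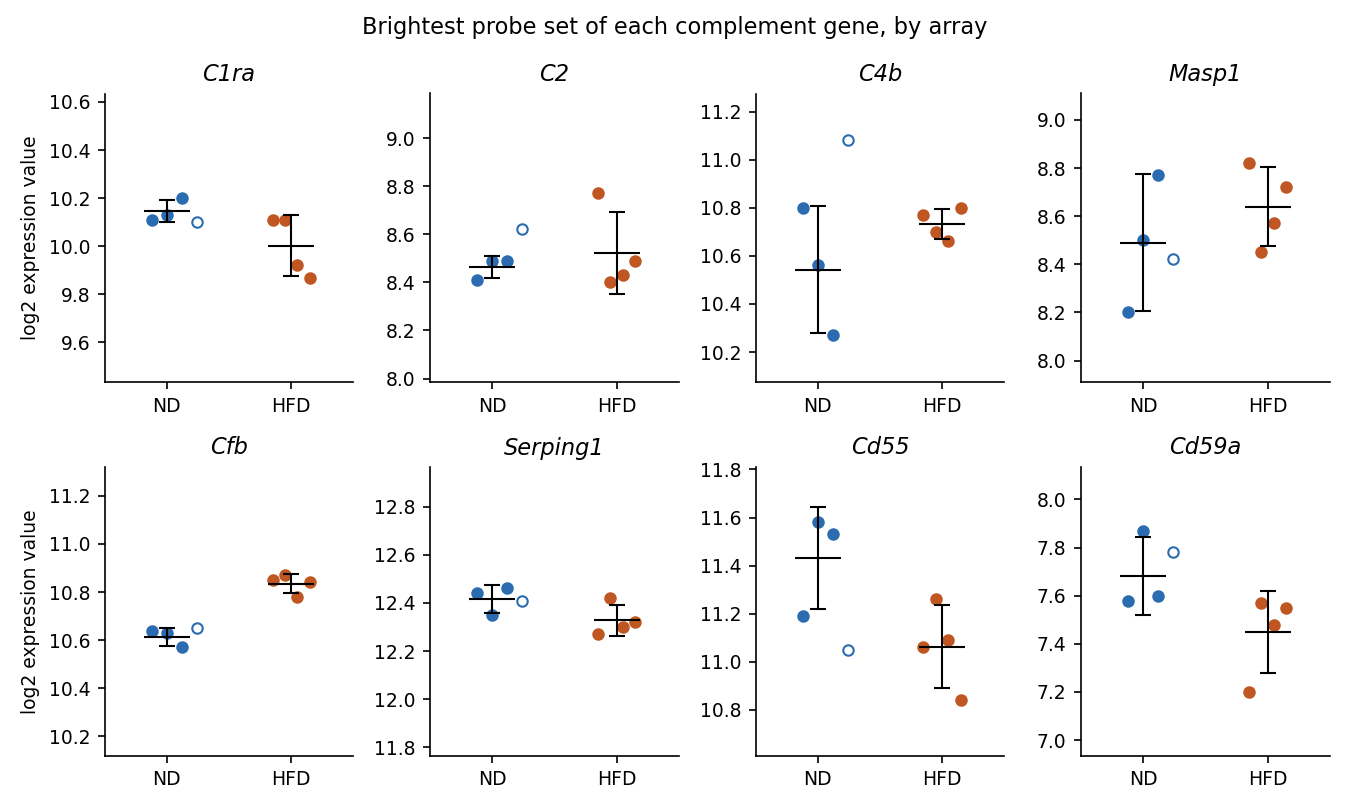
Log2 expression value of the brightest probe set of each measured complement gene (vertical axis, the same span of log2 units in every panel) in ND and HFD arrays. Filled points are the arrays compared, the open point is ND 4, and bars give the mean and SD of 3 ND and 4 HFD arrays. The Cfb points of the diets do not overlap, from 10.57 to 10.64 in ND 1 to 3 and from 10.78 to 10.87 in HFD.

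Cfb encodes factor B, the protease precursor of the alternative route's convertase. Its values were 10.64, 10.63 and 10.57 in ND 1, 2 and 3 and 10.85, 10.87, 10.78 and 10.84 in HFD 1 to 4. All HFD arrays lay above all ND arrays, and each group was tight, with means of 10.61 ± 0.04 (SD, n = 3) and 10.84 ± 0.04 (SD, n = 4). The difference was 0.22 (SE 0.07, 95% interval 0.07 to 0.37), or 1.17-fold, with an adjusted p = 0.0777 in limma. Among the members' brightest probe sets that of Cfb had the smallest p, though 2 dimmer Masp1 probe sets had smaller ones. Cfb kept a positive difference in every setting run, from 0.14 to 0.24.

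C2, the classical and lectin counterpart of factor B, is the neighbouring gene of Cfb in the genome. Its values were 8.41, 8.49 and 8.49 in ND and 8.77, 8.40, 8.43 and 8.49 in HFD. HFD 1 lay above all other arrays of the comparison, and HFD 2 to 4 lay at the ND level. The difference was 0.06 (SE 0.10, 95% interval −0.17 to 0.29, adjusted p = 0.806 in limma), and it was −0.02 without HFD 1.

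C4b encodes complement C4, which is cleaved in the classical and lectin routes and forms their convertase with C2. The mouse has a closely similar copy, C4a, whose RNA this probe set may also catch. C4b values were 10.80, 10.56 and 10.27 in ND and 10.77, 10.70, 10.66 and 10.80 in HFD. The HFD arrays lay inside the upper part of the wider ND range, and ND 3 was lowest. The difference was 0.19 (SE 0.11, 95% interval −0.06 to 0.44, adjusted p = 0.372 in limma), and without ND 3 it was 0.05.

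C1ra encodes C1r, the protease that activates C1s within the first classical complex. Its values were 10.11, 10.13 and 10.20 in ND and 10.11, 10.11, 9.92 and 9.87 in HFD. HFD 3 and 4 lay below every ND array, while HFD 1 and 2 equalled ND 1, and the difference was −0.14 (SE 0.09, 95% interval −0.34 to 0.05, adjusted p = 0.382 in limma). Close to C1ra lie C1s1, for the substrate protease C1s, and C1rb, a near copy of C1ra, which were picked after their values were seen. C1s1 differed by 0.16 (SE 0.08, adjusted p = 0.272) and C1rb by 0.04 (SE 0.06, adjusted p = 0.748). The proteases of the first complex thus had values on both sides of 0, and none passed.

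Serping1 encodes C1 inhibitor, a serpin that blocks C1r, C1s and the MASP proteases. Its values were 12.44, 12.35 and 12.46 in ND and 12.27, 12.42, 12.30 and 12.32 in HFD. HFD 2 lay within the ND range and the other HFD arrays just below it. The difference was −0.09 (SE 0.06, 95% interval −0.22 to 0.04, adjusted p = 0.414 in limma), the narrowest interval among the members.

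Cd55, or decay-accelerating factor, speeds the decay of convertases on the cell's own membrane. Its values were 11.19, 11.58 and 11.53 in ND and 11.06, 11.26, 11.09 and 10.84 in HFD. ND 2 and 3 lay above all HFD arrays, but ND 1 lay below HFD 2. The difference was −0.37 (SE 0.12, 95% interval −0.63 to −0.11, adjusted p = 0.0907 in limma), and the ND mean was 1.29-fold the HFD mean. The second probe set differed by −0.22 (SE 0.10) and the dimmest by −0.40 (SE 0.18), both in the same direction. In all 3 probe sets ND 2 was the highest of the 7 arrays compared and ND 1 the lowest of ND 1 to 3. Without ND 1 the difference of the brightest was −0.49 and passed (adjusted p = 0.0416, over a range of 0.0416 to 0.999 in all settings). Cd55b, the neighbouring copy of Cd55, was looked up with its values known, and it differed by −0.09 (SE 0.15) in its brighter and −0.40 in its dimmer probe set.

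Cd59a blocks the last step of the cascade, the membrane attack complex. Its values were 7.58, 7.87 and 7.60 in ND and 7.20, 7.57, 7.48 and 7.55 in HFD. The HFD arrays all lay below the ND arrays, but HFD 2 was only just below ND 1. The difference was −0.23 (SE 0.12, 95% interval −0.49 to 0.02, adjusted p = 0.276 in limma), and it was −0.14 without ND 2. The dimmer probe set differed by −0.15 (SE 0.09), with overlapping groups. Both membrane regulators therefore had lower HFD values in each of their probe sets, and none of these passed.

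**Figure D2:**
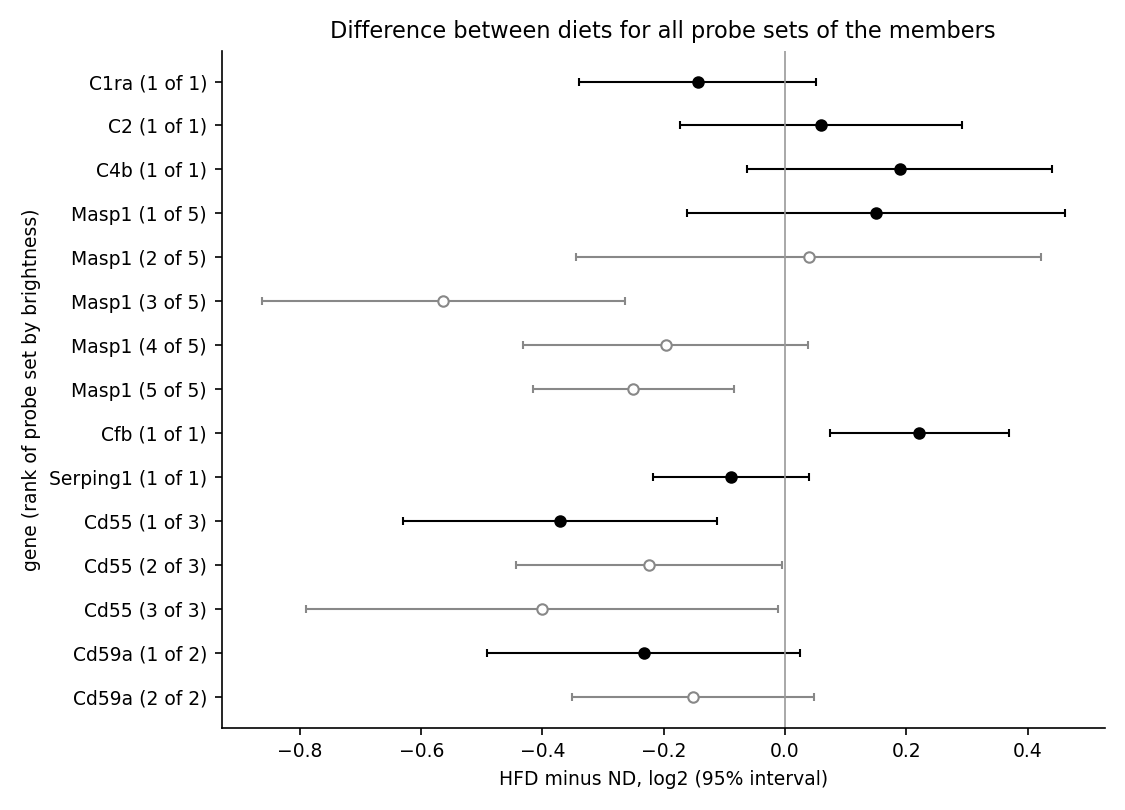
Difference HFD minus ND in log2 units (horizontal axis) with its 95% interval for the 15 probe sets of the 8 measured members, grouped by gene and ordered by brightness. Filled points are the brightest probe sets and open points the others. Of the 15 differences 10 lie below 0, and the Masp1 probe sets fall on both sides of it.

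Masp1 encodes proteases of the lectin route, and different transcripts of the gene give different proteins. Its probe sets disagreed. The brightest had values of 8.20, 8.50 and 8.77 in ND and 8.82, 8.45, 8.57 and 8.72 in HFD. These overlap over most of their range, and the difference was 0.15 (SE 0.14, 95% interval −0.16 to 0.46, adjusted p = 0.596 in limma), from 0.005 without ND 1 to 0.29 without ND 3. The second differed by 0.04 (SE 0.17).

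The third by brightness had values of 8.57, 8.24 and 8.67 in ND and 8.17, 7.80, 7.75 and 8.00 in HFD, so that every HFD array lay below every ND array. Its difference was −0.56 (SE 0.13, 95% interval −0.86 to −0.26), an ND mean 1.48-fold that of HFD. It passed the threshold when each probe set was tested alone (limma, adjusted p = 0.0446 over 28898 probe sets), as did 4.75% of all probe sets, and it was the only 1 of the members' 15 to pass. The adjusted p ran from 0.0263 to 0.999 over its settings. The call was lost without ND 1 (−0.53), ND 3 (−0.48), HFD 2 (−0.52), HFD 3 (−0.50) or HFD 4 (−0.59), and with ND 4 included (−0.47, adjusted p = 0.181). It was also lost with the specimen number as a block (−0.59, adjusted p = 0.184). In that fit HFD 4 has no ND partner and drops out, so its difference equals the one without HFD 4. The call was lost too with eBayes without trend (adjusted p = 0.0513) and with keratinocyte level as a covariate (−0.45, adjusted p = 0.231). With a covariate for the 3′ to 5′ signal gap it was likewise lost (−0.30, adjusted p = 0.999). ND 4 stood at 8.12, inside the HFD range. The fourth and the fifth, both dimmer, differed by −0.20 (SE 0.11) and −0.25 (SE 0.07, adjusted p = 0.08 over probe sets). The arrays of the fifth did not overlap, but only narrowly, with 5.37 the lowest in ND 1 to 3 and 5.34 the highest in HFD. Its mean of 5.35 lay below the lower quartile over genes (5.39). ND 4 stood at 5.79 in the fourth, below every HFD array, and at 5.31 in the fifth, inside the HFD range. With ND 4 included the fourth differed by −0.03.

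Within each array, the third Masp1 probe set minus the brightest was 0.37, −0.26 and −0.10 in ND 1, 2 and 3 and −0.65, −0.65, −0.82 and −0.72 in HFD 1 to 4. Every HFD array was lower than every ND array on this measure, with ND 1 far above the others. The means were 0.003 ± 0.33 (SD, n = 3) and −0.71 ± 0.08 (SD, n = 4), a difference of −0.71. ND 4 stood at −0.30, closer to ND 2 than to any HFD array, and with it the difference was −0.64. This measure was chosen because these probe sets were seen to disagree, so it is given as a description with no test, and which transcript each probe set reads is not settled here. Among genes with several probe sets, 402 of 7180, or 5.6%, likewise had a dimmer probe set past the threshold while the brightest was not.

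**Figure D3:**
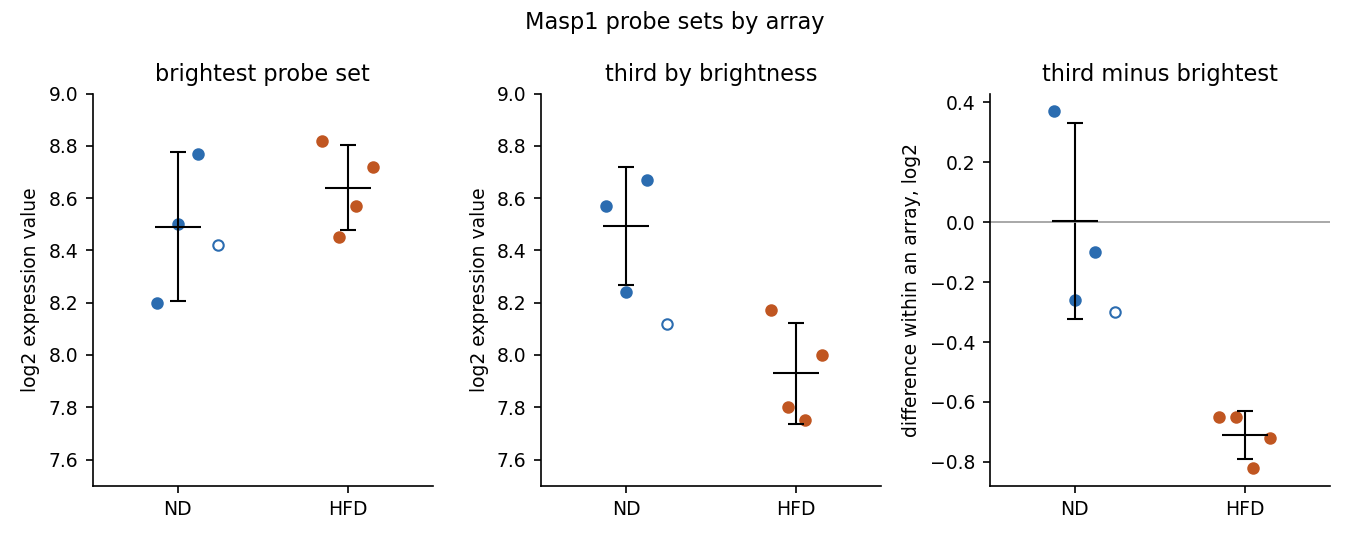
Masp1 log2 expression values in ND and HFD arrays for the brightest probe set (left) and the third by brightness (centre), and their difference within each array in log2 units (right). Filled points are the arrays compared, the open point is ND 4, and bars are the mean and SD of 3 ND and 4 HFD arrays. The within-array difference lies at −0.65 or below in HFD and at −0.26 or above in ND 1 to 3.

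The rest of the cascade was listed as 51 further genes, of which 43 were measured. None passed the threshold (limma, against 5.35% of all genes), and 4 had an unadjusted p under 0.05, against 22.1% of all genes. Their median difference was 0.03, with 27 values above and 16 below 0. The 14 initiators of the classical, lectin and alternative routes had a median of 0.02, the 6 terminal components 0.01, the 13 regulators 0.05 and the 10 receptors 0.02. The arrays of the diets did not overlap for 4 of the 43, against 17.9% of all genes.

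Calr, an endoplasmic reticulum chaperone that also binds C1q at the cell surface, had values of 11.58, 11.50 and 11.80 in ND and 11.52, 11.18, 11.28 and 11.27 in HFD. HFD 1 lay with the ND arrays and the other HFD arrays below them, for a difference of −0.31 (SE 0.10, adjusted p = 0.087) and −0.30 in the other probe set. Cr1l, or Crry, the main membrane regulator of C3 cleavage in rodents, had 10.22, 9.98 and 10.21 in ND and 10.14, 10.60, 10.57 and 10.45 in HFD. Again HFD 1 lay with ND, and the difference was 0.30 (SE 0.12, adjusted p = 0.166), opposite in sign to Cd55 and Cd59a, while its dimmer probe sets differed by 0.02 and −0.13. Without HFD 1, Calr and Cr1l both passed. The receptor of C5a, C5ar1, differed by −0.16 (SE 0.06, adjusted p = 0.161), and Hc, which encodes C5, by 0.15 (SE 0.06, adjusted p = 0.196). Both were dim, with means over the 7 arrays of 5.38 and 4.89, below the median gene (6.77) and the lower quartile over genes (5.39).

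Receptors and transcription factors known to drive complement transcription were listed as 19 genes, of which 17 were measured. Of these, 2 passed, against 5.35% of all genes in either direction. Both were lower in HFD, as were 2.73% of all genes. The interferon receptor subunit Ifnar2 had 10.41, 10.44 and 10.56 in ND and 10.15, 9.90, 9.91 and 9.97 in HFD. It fell by 0.49 on the log2 scale in its brightest probe set (SE 0.09, adjusted p = 0.0242) and differed by −0.28 in the second, but its dimmest, also past the threshold, differed by 0.56 the other way (adjusted p = 0.0282 over probe sets). Il6st, or gp130, the signalling subunit shared by receptors of the interleukin-6 family, had 11.98, 12.09 and 12.07 in ND and 11.76, 11.73, 11.67 and 11.56 in HFD.

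Il6st fell by 0.37 in its brightest probe set (SE 0.07, adjusted p = 0.025), with 0.14 and 0.03 in the other probe sets. With the mean of a gene's probe sets neither passed, at −0.07 for Ifnar2 and −0.06 for Il6st. The kinase Jak2 differed by 0.35 (SE 0.09, adjusted p = 0.053), alike in both its probe sets, and the interferon gamma receptor subunit Ifngr2 by −0.41 (SE 0.13, adjusted p = 0.0954). The list's median was −0.08 against 0.02 over all genes, with 8 values above and 9 below 0.

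**Figure D4:**
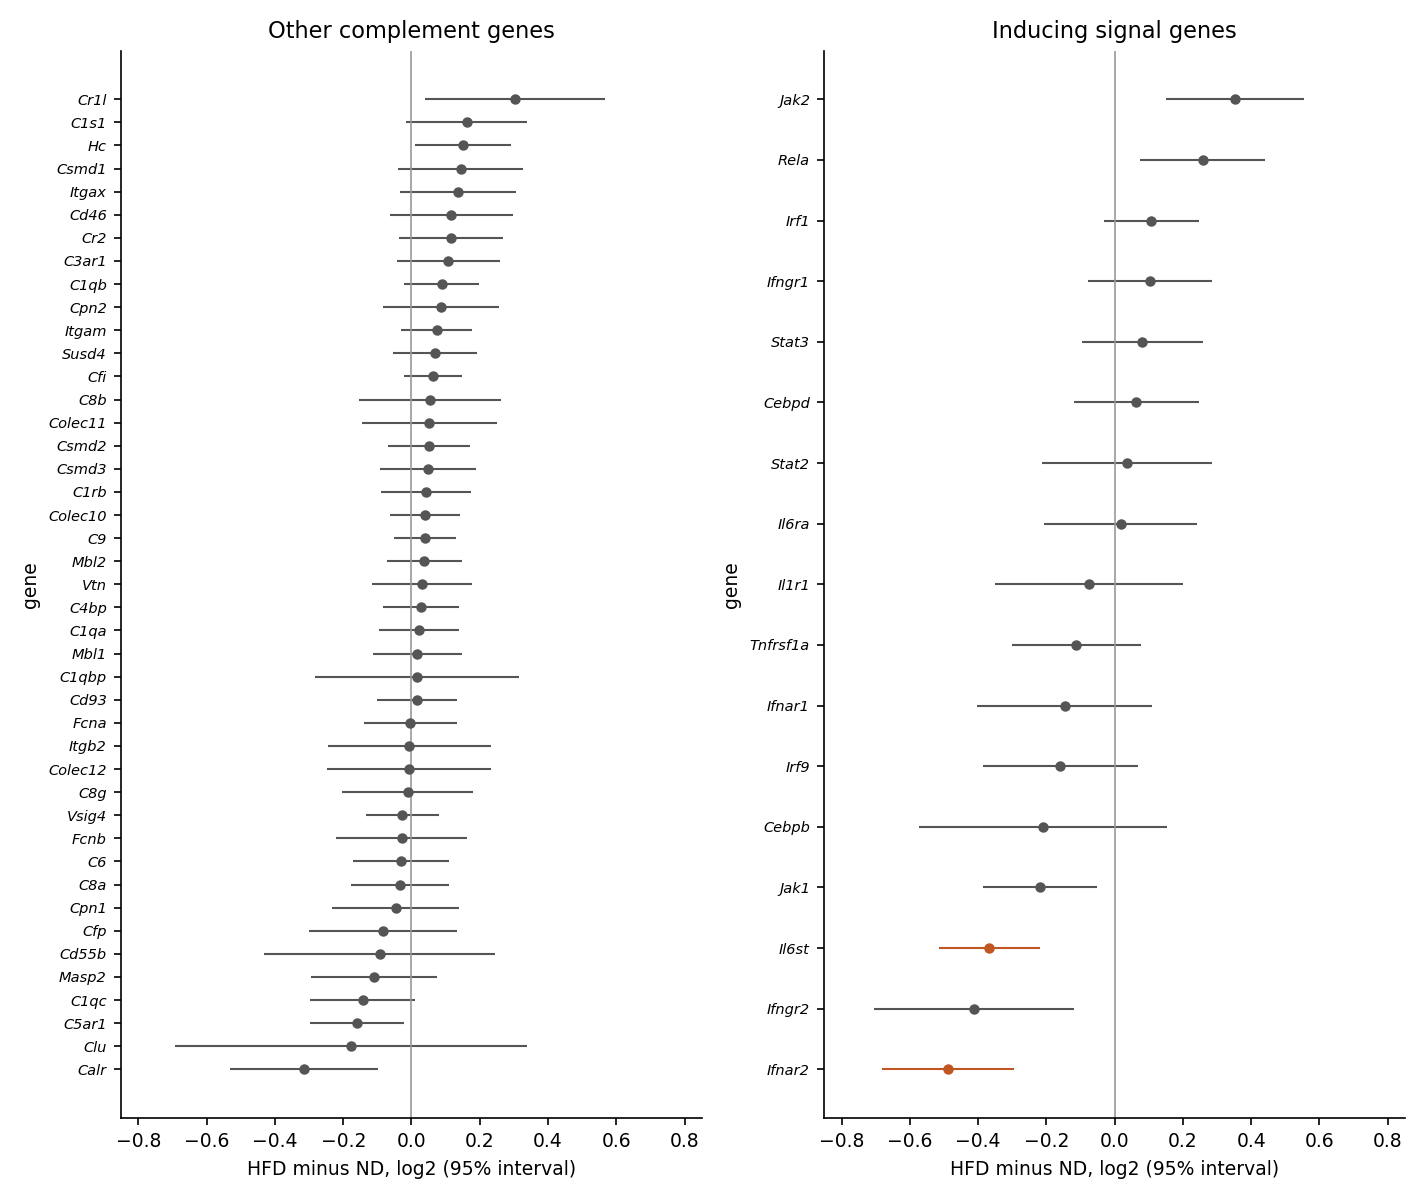
Difference HFD minus ND in log2 units (horizontal axis) with its 95% interval for 43 other complement genes (left) and 17 genes of the signals that induce complement (right), each ordered by its difference. Coloured points passed the threshold, which were Ifnar2 and Il6st in their brightest probe sets.

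The sorted cells' defining genes and those of other cell types were set beside these values. Cd34 stood between 12.06 and 12.17 in the 7 arrays. Pdgfra, in a dim probe set, lay between 5.79 and 6.01 in ND and between 6.02 and 6.49 in HFD, without overlap (0.34, adjusted p = 0.103). Macrophages are the usual source of C1q. C1qa lay between 5.14 and 5.26, C1qb between 5.06 and 5.22 and Ptprc between 3.99 and 4.15, all below the lower quartile over genes (5.39), and C1qc between 6.15 and 6.42, where the HFD arrays lay below the ND arrays (−0.14, adjusted p = 0.263). Among the other macrophage markers, 3 named after their values were seen lay above the median gene (6.77), Cd68 between 8.77 and 9.21, Csf1r between 7.33 and 7.79 and Fcer1g between 6.80 and 7.12, with overlapping diets. Over 12 macrophage markers 1 passed, Tyrobp (0.32, adjusted p = 0.0352), and the list mean ran from 5.77 to 5.80 in ND and from 5.74 to 5.88 in HFD.

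All 17 measured keratinocyte markers had positive differences, from 0.03 to 1.55, with 0 past the threshold (4 at an unadjusted p under 0.05). Their mean ran from 6.43 to 6.84 in ND and from 6.49 to 7.60 in HFD. Epcam lay low, between 5.11 and 5.35. Others, named after their values were seen, lay above the median gene: Krt10 between 8.59 and 10.98, Krt5 between 7.44 and 9.74 and Dsp between 6.90 and 10.92. Perp had the largest difference (1.55, adjusted p = 0.143 in limma), and Dsp differed by 1.41, both with overlapping diets. Of 10 endothelial, 7 adipocyte, 8 mast cell, 7 mural and muscle and 4 Schwann cell markers none passed, with 0, 0, 0, 1 and 0 at an unadjusted p under 0.05. Pecam1 lay between 6.51 and 7.30, Adipoq between 4.30 and 4.49 and Kit between 4.17 and 4.31. Of 12 fibroblast markers S100a4 rose by 0.49 (adjusted p = 0.0224) and Lum fell by 0.34 (adjusted p = 0.0359).

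RNA quality was read from control probe sets at both ends of the Gapdh and Actb transcripts, as the mean of 3′ minus 5′. This measure ran from −0.34 to −0.18 in ND and from −0.44 to −0.38 in HFD. Every HFD array lay below all of ND 1 to 3 on this measure, so it and diet cannot be told apart here. With it as a covariate the difference was 0.14 for Cfb, −0.32 for Cd55, −0.47 for Cd59a, −0.12 for C4b, −0.09 for C1ra, 0.11 for C2, −0.06 for Serping1, 0.45 for the brightest Masp1 probe set and −0.30 for the third. With the keratinocyte mean as a covariate, Cfb stayed at 0.22 and Cd55 at −0.38, while C2 was at 0.22, Masp1 at 0.34, Cd59a at −0.34 and Serping1 at −0.15. No member passed in either fit. At an unadjusted p under 0.05 there were 1 and 5 of the 8 members, against 604 and 2641 of all 17097 genes. Beyond these values, the part of RNA quality or of keratinocyte RNA in the results was not tested.

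**Figure D5:**
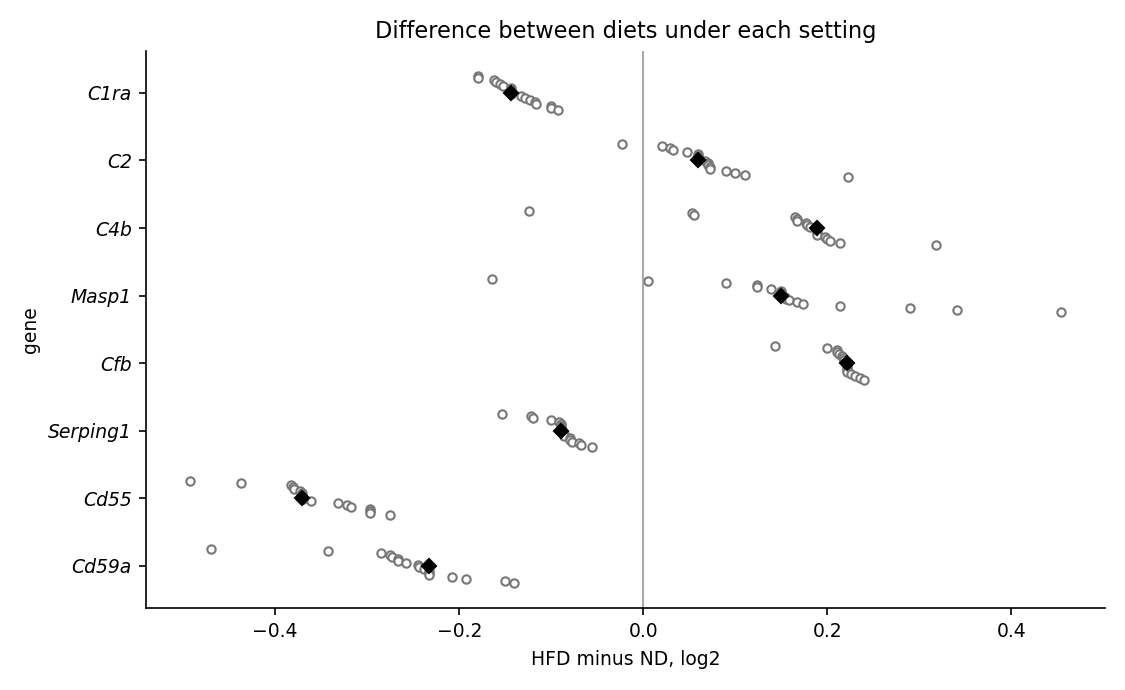
Difference HFD minus ND in log2 units (horizontal axis) of each measured member in the fit reported (filled diamond) and in each alternative fit with 1 value per gene (open circles, spread vertically for legibility; probe sets tested alone are not drawn). Cfb runs from 0.14 to 0.24 and Cd55 from −0.49 to −0.28, while C2, C4b and Masp1 have alternatives on both sides of 0.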

How the data were processed

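The authors hybridised amplified cDNA of sorted dermal fibroblasts to Affymetrix arrays and deposited log2 expression values for 45141 probe sets on 8 arrays (RMA and affy per the submitters' processing notes, with no version stated there). Array quartiles lay within 0.04 log2 units, so a change in total RNA would not be visible. No detection calls were used. Names of probe sets came from the platform annotation (28898 with 1 gene symbol, 551 with several, 15692 not named), with symbols set by Entrez identifier for 28689 through a table of GRCm38.p6.

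HFD 1 to 4 were compared with ND 1 to 3 in limma 3.58.1 (R 4.3.3, lmFit and eBayes with trend), 1 probe set per gene, with Benjamini-Hochberg adjustment at 0.05 over 17097 genes. Adjusted p-values come from this fit unless probe sets are named. On simulated data for this comparison (17097 genes, 200 changed), 95.3% of changes of 1 and 66.4% of changes of 0.5 log2 units were called. Of the calls, 4.92% were false. The simulated noise was independent between genes and arrays, so these shares do not carry over to arrays that differ in many genes together. No 2 arrays were duplicates (SD of their difference at least 0.165). The same specimen number did not pair arrays across diets (correlations of deviations −0.291 to −0.0526).

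The members and gene lists were chosen with earlier results of these data known. All members are named; of other lists, the genes past the threshold or with the 4 smallest p, and defining markers. A rule to name the genes most like C3 could not be used. Alternatives were ND 4, each array left out, specimen block, brighter genes, quantile or median scaling, variance models, array weights, other probe sets and 2 covariates. Figures were made in matplotlib 3.10.9.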

Additional observations from a re-analysis of the deposited data

How the results depend on the processing

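No member passed the threshold in most alternatives. With only the genes above the median gene tested, Cfb did (count 1, adjusted p = 0.0457 in limma). There 1387 of these fewer genes passed, against 914 of all 17097 in the fit reported. With each probe set alone Masp1 did (count 1), as did 4.75% of all probe sets. Over single arrays left out the count ran from 0 to 1, Cd55 without ND 1, where 815 of all genes passed. The sign of the difference turned for C4b with the 3′ minus 5′ covariate (−0.12), for C2 over arrays left out (−0.023 to 0.10, the lowest without HFD 1), and for Masp1 with the mean of probe sets (−0.16) and in its probe sets of brightness rank 3 (−0.56), 4 (−0.20) and 5 (−0.25). For other genes of the cascade the count of 0 became 1 with each probe set alone (Csmd1) and 0 to 2 over arrays left out, 2 without HFD 1.

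The count of all genes past the threshold, 914, was 6 with ND 4, 1387 among genes above the median gene, 400 with the mean of probe sets, 0 with the 3′ minus 5′ covariate (604 at an unadjusted p under 0.05), 15 with the keratinocyte covariate, and 6 to 1072 over arrays left out (485 without ND 2, 11 without ND 3, 210 without HFD 2, 6 without HFD 3 and 9 without HFD 4). With the specimen number as a replicate block, where HFD 4 has no ND partner and drops out, it was 1. No member passed in that fit (1 of the 8 at an unadjusted p under 0.05, against 2517 of all genes). The 2 signal genes past the threshold became 0 with ND 4, the replicate block, the mean of probe sets and either covariate. At an unadjusted p under 0.05 these fits had 4, 4, 3, 2 and 5 of the 17, against 2795, 2517, 3462, 604 and 2641 of all 17097 genes. The count past the threshold was 3 with genes above the median gene, quantile scaling and eBayes without trend. Over arrays left out it ran from 0 to 3: 0 without ND 3, HFD 3 or HFD 4, 1 without ND 2 or HFD 2, and 3 without HFD 1. The cause was not tested.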

Other observations

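ND 4, marked as excluded in the labels, is outside the main comparison. Above, it enters the fits with all 8 arrays, the Masp1 values where named, the open points of the figures, and the checks of quartiles and duplicates. Against the range of ND 1 to 3 it was within for 3 members, Serping1 (12.41), Masp1 (8.42) and Cd59a (7.78). It was above for C4b (11.08, the highest of all 8 arrays), C2 (8.62) and Cfb (10.65, still below every HFD array), and below for C1ra (10.10) and Cd55 (11.05, inside the HFD range). With ND 4 included the differences were 0.21 for Cfb, −0.28 for Cd55, −0.26 for Cd59a, 0.06 for C4b, 0.02 for C2, −0.13 for C1ra, −0.09 for Serping1 and 0.17 for Masp1.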
